A study of Arabidopsis thaliana with 8 samples.

Results

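The MIR157 precursors are the 4 miRNA loci of the deposited table named ath-MIR157 with a letter from a to d, and they were taken by name from the 20347 loci listed, of which 325 are miRNA precursors. Together they held 63962 counts over the 8 libraries, and ath-MIR157c alone held 95.1% of them, followed by ath-MIR157a and ath-MIR157d, with ath-MIR157b at 0. The libraries were made from small RNA in phloem exudates of wild-type Col-0 Arabidopsis seedlings, 4 from −Fe plants and 4 from +Fe plants. Both groups grew for 11 days on half-strength MS medium with iron. After this, −Fe plants spent 3 days on medium without iron and +Fe plants 3 days on fresh medium with iron. The paper also describes 3 days of darkness, meant to lengthen the hypocotyls, before the plates went to the growth chamber. Each library came from the exudates of many pooled rosettes, collected from cut hypocotyls by the EDTA method, so a library stands for a pool and not for a plant. The paper describes exudate RNA as coming from an acellular source, so the values are not levels per cell. Which rosettes or tissues contributed an RNA cannot be told from such a pool. Values of single libraries are given in the order of replicates 1 to 4, and the prefix ath is left out of precursor names. The design asks whether small RNAs of the phloem sap differ between iron-deficient and iron-sufficient plants.

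miR157 belongs with miR156 to one of the oldest miRNA families of land plants. Both guide ARGONAUTE proteins to the transcripts of SPL genes, which encode SQUAMOSA promoter binding protein-like transcription factors, and both are abundant in young plants and decline with age. As they decline, SPL proteins accumulate, activate MIR172 genes and move the shoot from the juvenile to the adult form. MIR157a, MIR157b and MIR157c are annotated to release the same mature miRNA, and that of MIR157d differs slightly at one end. A read of the shared mature miRNA therefore fits more than one precursor, and the count of a precursor reports where the authors' alignment placed such reads as well as which gene made them.

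All 4 precursors were found by name in the TAIR10.1 gene table, and coordinates are given here as the deposited table lists them (genome build TAIR10, per the submitters' processing notes), where start and end both lie 1 nt below those of TAIR10.1. MIR157c (AT3G18217) lies on chromosome 3 from 6244499 to 6244715. The other 3 lie on chromosome 1, MIR157d (AT1G48742) from 18026810 to 18027030, MIR157a (AT1G66783) from 24913201 to 24913298 and MIR157b (AT1G66795) from 24921085 to 24921216. MIR157a and MIR157b are near neighbours, with 7786 nt between them. The precursors differ in length, with 98 nt for MIR157a, 132 nt for MIR157b, 217 nt for MIR157c and 221 nt for MIR157d.

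Each precursor also overlapped 1 further locus of the table that is not a precursor, and in all 8 libraries the counts of the pair were equal. At MIR157c the stretch common to both loci was 192 nt, from 6244524 to 6244715. For MIR157a it was the whole precursor of 98 nt, and for MIR157d 196 nt, from 18026835 to 18027030. The same reads thus appear to be listed at both loci of a pair, and MIR157 values came only from the row named for the precursor. Both rows of a pair stayed in the library totals and among the loci considered for testing.

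MIR157c was by far the highest of the 4. The −Fe libraries held 5910, 10470, 6907 and 6087 counts of it, and the +Fe libraries 9912, 8656, 5424 and 7447. Expressed as CPM, which divides each count by the library total, this was 558, 826, 582 and 462 CPM in −Fe exudates against 702, 837, 404 and 713 CPM in +Fe exudates. The highest and the lowest library were both +Fe, replicates 2 and 3, and the groups overlapped. The mean was 607 ± 155 CPM in −Fe exudates against 664 ± 184 CPM in +Fe exudates (SD, n = 4 each).

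MIR157a, the shortest of the 4, came next. The −Fe libraries held 320, 706, 320 and 230 counts of it, and the +Fe libraries 220, 468, 401 and 439. Its level was 30.2, 55.7, 27.0 and 17.5 CPM in −Fe exudates against 15.6, 45.2, 29.9 and 42.0 CPM in +Fe exudates. The single highest library was −Fe replicate 2 and the lowest was +Fe replicate 1, with the other 6 between them. The means were 32.6 ± 16.3 CPM in −Fe exudates against 33.2 ± 13.5 CPM in +Fe exudates (SD, n = 4 each).

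MIR157d was counted in each library, but rarely. The −Fe libraries held 2, 25, 1 and 4 counts of it, and the +Fe libraries 6, 2, 3 and 2, so 25 of its 45 counts came from −Fe replicate 2. The mean of 0.637 ± 0.894 CPM in −Fe against 0.258 ± 0.112 CPM in +Fe exudates (SD, n = 4 each) rests on that library, and without it the −Fe mean, 0.192 ± 0.110 CPM (SD, n = 3), was lower than the +Fe mean. In 5 of the 8 libraries the count was at most 3, the limit set by a count of 0.

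MIR157b had no count in any library. With 3 counts as the upper limit of a count of 0, its level was under 0.213 to 0.290 CPM, depending on the depth of the library. Such limits cover counting error only, since PCR copies of 1 molecule were not told apart from separate molecules. Since MIR157b is annotated with the same mature miRNA as MIR157a and MIR157c, a count of 0 says that no read was placed there, not that the gene was silent.

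**Figure D1:**
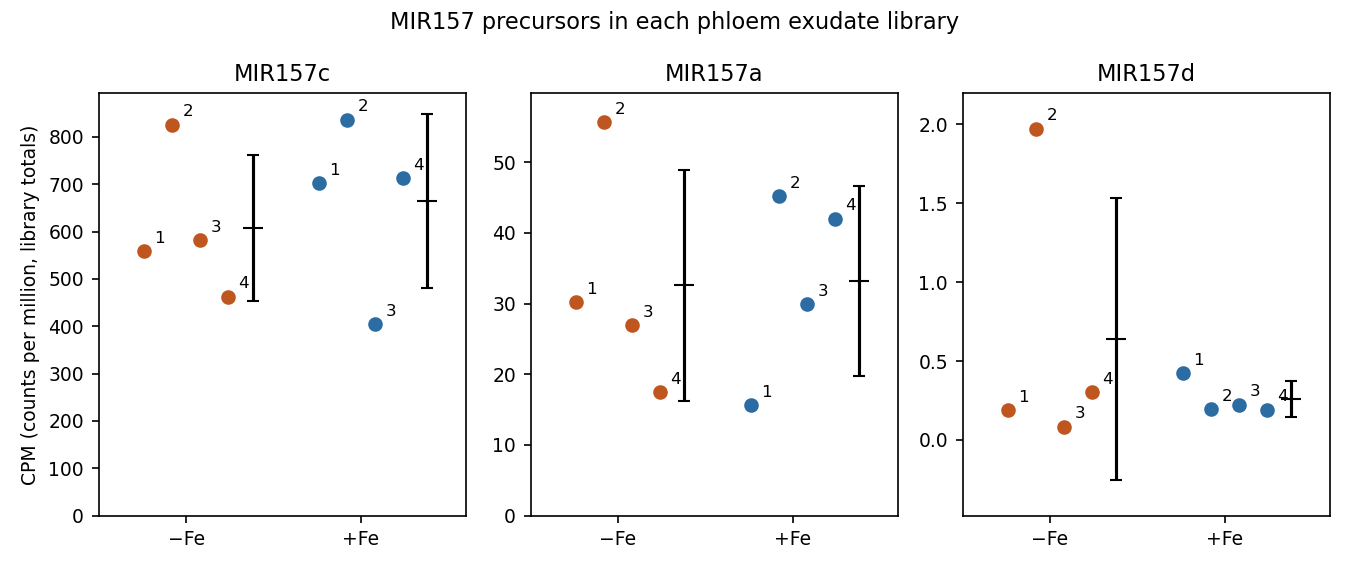
Level of MIR157c, MIR157a and MIR157d in CPM (y axis, each panel with its own scale) in each −Fe and +Fe library, with the replicate number beside each point. The bars give the mean and SD of 4 libraries. In MIR157c and MIR157a the groups overlap, and in MIR157d −Fe replicate 2 stands alone at 1.97 CPM.

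Among all 325 precursors, MIR157c ranked 4 by mean CPM over the 8 libraries, with 636 ± 160 CPM (SD, n = 8). MIR159a, a regulator of MYB transcription factors and the next above it, had 1793 CPM with a lowest library of 1149, above the highest of MIR157c (837 CPM). MIR161, which targets pentatricopeptide repeat genes and ranked just below, had 625 ± 97.0 CPM (SD, n = 8), from 518 to 788, and did not differ from MIR157c beyond their spread. Per length the order changed, and MIR157c ranked 7 by CPM per nt, although it was not tested whether counts grow with precursor length. MIR157a ranked 37 with 32.9 ± 13.9 CPM (SD, n = 8), between MIR472 with 33.0 CPM and MIR400 with 32.8 CPM, whose ranges of 22.6 to 43.5 and 16.3 to 48.0 CPM overlap its own of 15.6 to 55.7 CPM. MIR157d ranked 192, next to MIR5632 (0.454 CPM) and MIR2933b (0.420 CPM), both of them at 0 in some libraries.

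The precursors also differed in how steady they were. Over the 8 libraries the coefficient of variation was 25.2% for MIR157c, 42.1% for MIR157a and 139% for MIR157d. Counting alone would give 1.15% for MIR157c, 5.08% for MIR157a and 42.2% for MIR157d at their mean counts, so the spread of MIR157c and MIR157a was larger than their counting error. The value of MIR157d rests on −Fe replicate 2. Without that library, left out here after its values were seen, the spread of MIR157d was 46.7%, under the 59.2% that counting alone would give for the 7 others. Among the 105 precursors with at least 10 counts in each library, the median was 33.9%, with quartiles of 26.7% and 45.9%. MIR157c was the 20th steadiest of them and MIR157a the 73rd. In the edgeR fit, the biological coefficient of variation was 26.7% for MIR157c and 32.2% for MIR157a, against 105% for all loci tested and 162% for MIR157d.

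The division of the family counts among paralogs was the same in every library in its order, with MIR157c first, then MIR157a, then MIR157d. MIR157c took 95.03% ± 1.52 of the MIR157 counts (SD, n = 8), MIR157a 4.91% ± 1.498 and MIR157d 0.0613% ± 0.0679, which was 0.0382% for MIR157d without −Fe replicate 2. Divided by the length of the precursor, the mean shares were 89.7% for MIR157c and 10.2% for MIR157a, so MIR157c remained the highest. On that scale MIR157c had 293 CPM per 100 nt and MIR157a 33.6 CPM per 100 nt.

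The share of MIR157a varied between libraries beyond counting error. It was 5.13%, 6.30%, 4.43% and 3.64% in −Fe exudates, against 2.17%, 5.13%, 6.88% and 5.57% in +Fe exudates. In +Fe replicate 1 the 95% Wilson interval was 1.90% to 2.47%, which lies below the intervals of the 7 other libraries, the next lowest being 3.20% to 4.13% in −Fe replicate 4. At the other end, +Fe replicate 3 had 6.88% with an interval of 6.26% to 7.56%. These intervals cover counting error only. Put as a ratio, MIR157c had between 13.5 and 45.1 times the counts of MIR157a, with the highest ratio in +Fe replicate 1 and the lowest in +Fe replicate 3.

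**Figure D2:**
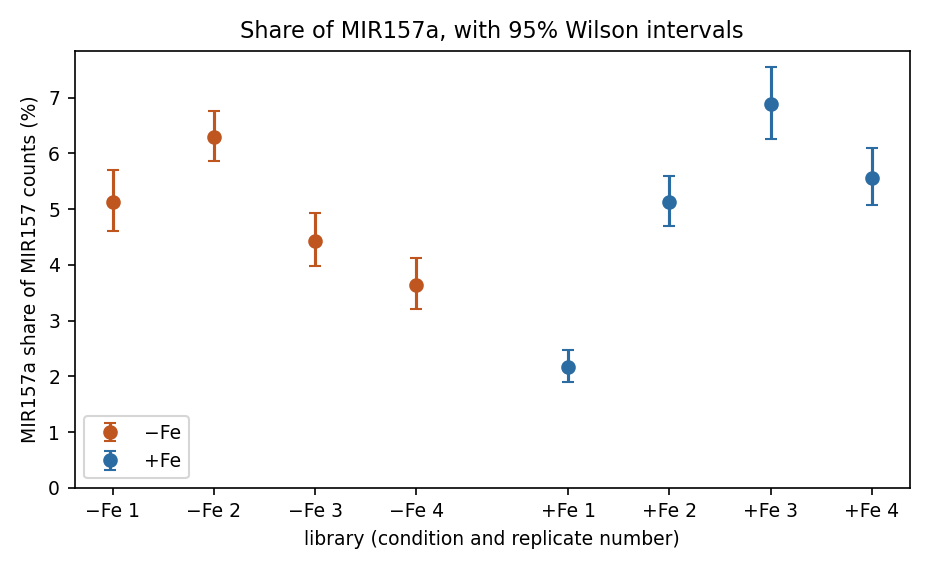
Share of MIR157a in the MIR157 counts (y axis, percent) in each −Fe and +Fe library (x axis), with 95% Wilson intervals as bars. The extremes, 2.17% and 6.88%, are both +Fe libraries, and the −Fe libraries lie between them.

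These shares did not separate the conditions. The MIR157c share was 95.04% ± 1.20 in −Fe against 95.02% ± 1.98 in +Fe exudates (SD, n = 4 each), a difference of 0.0165 percentage points (two-sided exact permutation test, p = 1.00). This test is free of the scaling of the libraries, and the smallest p it can give with 4 libraries against 4 is 0.0286.

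No MIR157 precursor passed the test of −Fe against +Fe exudates. Differences were tested by quasi-likelihood in edgeR on raw counts of the 17722 loci that reached 10 counts in the sum of the 8 libraries, after TMM normalization, and were called at a Benjamini-Hochberg adjusted p under 0.1 over all these loci with an absolute log2 fold change of at least 0.5. Of the MIR157 precursors 3 were tested and 0 were called, beside 0 of all 17722 loci (0.0%). At an unadjusted p under 0.05 there were 0 MIR157 precursors and 1186 loci (6.69%, or 1.83% counting only those lower in −Fe). DESeq2, the study's tool, called 34 of the 17722 loci as run here, of which 0 were MIR157 precursors. It gave no adjusted p for MIR157d, so that precursor could not be called. The study itself reported more iron-regulated small RNAs than this run called. In CPM the groups did not overlap at 2.96% of the loci tested, and they overlapped at each of the 3 MIR157 precursors.

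For MIR157c the log2 fold change of −Fe over +Fe was 0.038 ± 0.22 (SE), with a 95% interval of -0.42 to 0.49, which is 0.749-fold to 1.41-fold (edgeR, adjusted p = 0.998). Its mean CPM differed by -56.6 CPM, −Fe minus +Fe (exact two-sided permutation test, p = 0.657). The sign is not the same on both scales. The TMM normalization put the median log2 fold change of all loci at 0.066 and library totals alone put it at -0.12. Measured from these medians, MIR157c was at -0.028 with TMM and -0.0095 with library totals, and MIR157a at 0.081 and 0.095.

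For MIR157a the log2 fold change was 0.15 ± 0.28 (SE), with a 95% interval of -0.43 to 0.72, or 0.744-fold to 1.65-fold (edgeR, adjusted p = 0.998). In CPM by library totals the difference was -0.580 CPM, again of the other sign (exact two-sided permutation test, p = 0.943). For MIR157d the estimate of 1.23 ± 2.00 (SE) had a 95% interval of -2.88 to 5.34 (edgeR, adjusted p = 0.998), so these counts leave its change undetermined. Without −Fe replicate 2 the log2 fold change of MIR157d was -0.092.

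The sum of the 4 precursors is given as a description without a test. It was 589, 884, 609 and 480 CPM in −Fe exudates against 718, 882, 434 and 755 CPM in +Fe exudates, which are 640 ± 172 CPM in −Fe and 697 ± 189 CPM in +Fe exudates (SD, n = 4 each). As a share of all precursor counts of a library, the family held 4.09% ± 0.759 in −Fe against 3.86% ± 0.768 in +Fe exudates (SD, n = 4 each). With TMM-adjusted library sizes the −Fe libraries drew together, from 642 to 757 CPM, while the +Fe libraries ran from 383 in replicate 3 to 791 CPM in replicate 1.

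The loci that share a pathway with MIR157 were read from the same fit, using lists of MIR156, MIR172 and SPL genes. Of the 10 MIR156 precursors, 7 had enough counts to be tested and 0 were called in either direction, with a median log2 fold change of -0.081. Of the 5 MIR172 precursors, 3 were tested and 0 were called, with a median of -0.083. For the 3 MIR157 precursors tested the median was 0.15, over all loci it was 0.066 and over the 233 precursors tested 0.064. MIR156d, the highest of the MIR156 precursors, had a log2 fold change of -0.075 ± 0.28 (SE; edgeR, adjusted p = 0.998), and this sign turned with the replicate number as a block and without +Fe replicate 1 or 2.

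**Figure D3:**
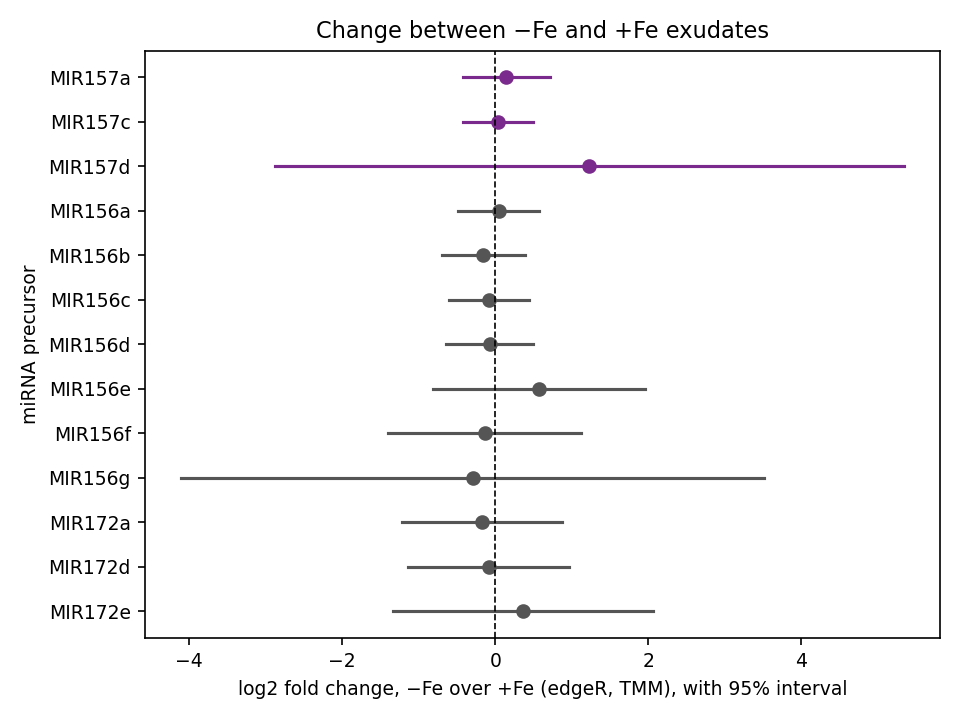
Log2 fold change of −Fe over +Fe (x axis, edgeR with TMM normalization) with its 95% interval for the tested precursors of MIR157 (purple), MIR156 and MIR172 (grey). Every interval includes 0, and those of MIR157d and MIR156g are the widest.

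MIR156 and MIR157 were of like size in the exudates. The 10 MIR156 precursors held 50301 counts, of which MIR156d held 61.3%, MIR156c 20.7%, MIR156b 9.91% and MIR156a 6.28%. As placed by the authors' alignment, the MIR156 counts were thus spread over more precursors than those of MIR157. How reads that fit several precursors were placed is not known, so this spread need not reflect which genes made them. The ratio of MIR157 to MIR156 counts was 1.12, 1.41, 1.46 and 1.298 in −Fe exudates against 1.16, 0.999, 1.71 and 1.39 in +Fe exudates. MIR157 counts were higher than MIR156 counts in 7 of the 8 libraries, and in +Fe replicate 2 they were nearly equal, at 9126 and 9137. The mean ratio was 1.32 ± 0.153 in −Fe against 1.31 ± 0.309 in +Fe exudates (SD, n = 4 each). Per length the order turned, and the ratio of the summed counts per nt was 0.768. That scale assumes that counts grow with precursor length, which was not tested.

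**Figure D4:**
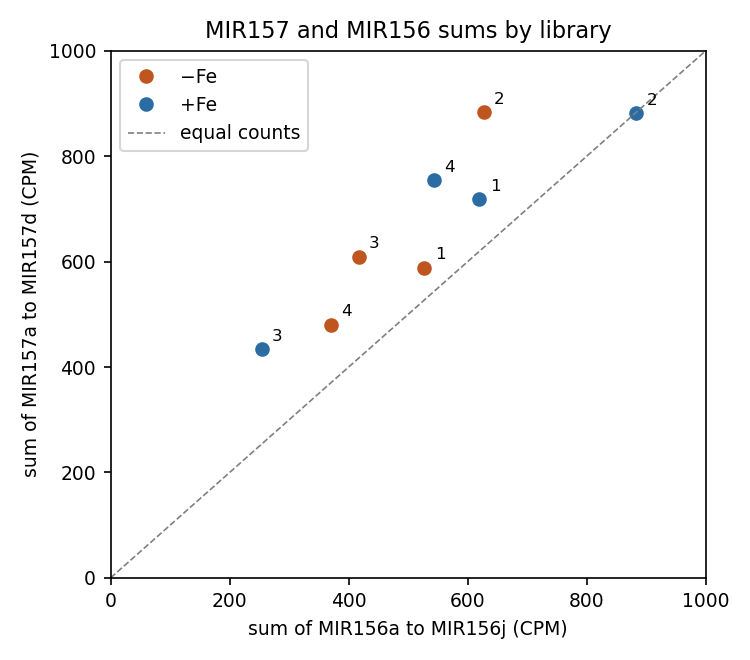
Sum of the MIR157 precursors against the sum of the MIR156 precursors, both in CPM, for each −Fe and +Fe library, with replicate numbers beside the points and a dashed line at equal counts. The libraries with little MIR156 also have little MIR157, from 254 and 434 CPM in +Fe replicate 3 to 883 and 882 CPM in +Fe replicate 2.

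The precursors whose levels most resembled the MIR157 sum across the 8 libraries were MIR156a, MIR156c and MIR156d, out of 103 others with at least 10 counts in each library. Pearson correlations of log2(CPM + 1) with the MIR157 sum were 0.945, 0.935 and 0.902, where the median of the 103 was 0.412. MIR156b followed with 0.874. These were chosen for the likeness, so no test applies, and all points share the scaling of their library. Reads that fit several MIR156 precursors may also have been divided among them, so their correlations need not be separate signals. Leaving out −Fe replicate 4 and +Fe replicate 3, the libraries farthest from the median on that scale, gave 0.905 for MIR156a, 0.854 for MIR156c and 0.733 for MIR156d (n = 6). With TMM-adjusted sizes the same 3 came first. By Spearman correlation 2 of the 3 did, with 0.952 for MIR156c and 0.929 for MIR156a, while MIR156d ranked 12 with 0.786. Scaled to precursor counts in place of all counts, MIR5645b came first with 0.926, a precursor singled out after its values were seen, and MIR156a, MIR156d and MIR156c had 0.895, 0.821 and 0.811.

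MIR172, which lies downstream in the age pathway, was much lower. Its 5 precursors summed to 27.3, 23.7, 15.2 and 6.15 CPM in −Fe exudates against 11.8, 13.5, 20.7 and 38.8 CPM in +Fe exudates, and the groups overlapped. No read was placed at MIR172b or MIR172c in any library. As at MIR157b, this does not say that the genes were silent, since the placement of reads that fit several loci is not known.

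The SPL genes, whose transcripts miR157 targets, had few small RNA counts. Of 11 SPL genes listed, 6 overlapped a locus that is not a precursor, and 3 of these loci reached 10 counts. The locus at SPL2 (AT5G43270), on chromosome 5 from 17358412 to 17361415, held 2637 of the 2746 counts. It had 22.2, 22.8, 27.1 and 18.5 CPM in −Fe exudates against 27.3, 42.6, 27.3 and 33.9 CPM in +Fe exudates, so the groups did not overlap in CPM and −Fe was lower, as was so at 1.32% of all loci tested. With TMM-adjusted sizes they did overlap, and the locus was not called, with a log2 fold change of -0.32 ± 0.25 (SE; edgeR, adjusted p = 0.9496). The alternatives gave adjusted p-values from 0.628 to 1.00 for this locus.

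At the other SPL loci the counts were too few to compare. The locus at SPL13A (AT5G50570) held 0, 3, 2 and 12 counts in −Fe exudates against 6, 3, 20 and 36 in +Fe exudates. The locus at SPL3 (AT2G33810) held 0, 2, 4 and 11 counts in −Fe exudates, with no count in +Fe exudates. It was among the 6.69% of loci under 0.05 before adjustment in edgeR, with an adjusted p of 0.645. MIR156i lies inside SPL4 and MIR156j inside SPL9, and they had 0 and 3 counts over the 8 libraries. The locus counted for SPL9 encloses MIR156j and also held 3 counts, at both in −Fe replicate 4 only. The SPL9 counts thus appear to be the MIR156j reads listed again. The table gives no strand, so reads of an SPL transcript and of its opposite strand cannot be told apart.

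The libraries held between 10347644 and 14116739 counts, with TMM factors of 0.743 to 1.17. They hold small RNA, so genes that mark a tissue could be read only as fragments at loci over them. Of 5 phloem genes (SUC2, APL, SEOR1, PP2-A1 and AHA3), 2 had a count, SUC2 and AHA3, with summed levels of 0 to 0.850 CPM in −Fe and 0 in +Fe libraries, while APL, SEOR1 and PP2-A1 overlapped no locus. Of 5 mesophyll genes for Rubisco small subunits and chlorophyll binding proteins, all 5 had counts, with summed levels of 93.9 to 184 CPM in −Fe and 90.5 to 224 CPM in +Fe libraries. Their part in the MIR157 levels was not tested.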

How the data were processed

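Small RNA was sequenced from 4 −Fe and 4 +Fe phloem exudates. The authors trimmed adapters in Cutadapt, keeping reads of any size, and placed and counted them in ShortStack. The deposited values are raw counts of reads at each locus, not normalized. How reads that fit several loci were placed is not given in the sources used here, and this affects the division among paralogs. The deposited column with the sum over libraries was not used, and 0 library columns were left out. Groups were taken from the labels. Labels name separate biological replicates.

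CPM were computed with library totals. The test took loci with 10 counts or more in all and was made with edgeR 4.0.16 (limma 3.58.1, R 4.3.3), by quasi-likelihood tests with the condition alone after TMM normalization, with standard errors derived from the F statistic. DESeq2 1.42.0 was the other count test. For single values, two-sided exact permutation tests ran over the 70 divisions of the libraries. Both kinds of test were checked on simulated data. The edgeR check was also run at a spread near that of these loci, with no outcome required there. It had to pass only at a biological coefficient of variation well under the 105% of these loci. Passing it therefore does not show how many changes edgeR would find here. Loci were placed at genes of the TAIR10.1 table by an overlap of at least 1 nt.

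The MIR157 precursors and the lists were chosen with earlier results of these data known. Named loci are the MIR157, MIR156 and MIR172 precursors, 11 SPL genes, 5 phloem and 5 mesophyll genes, the 3 precursors most like the MIR157 sum, the precursors next in rank and the loci overlapping a MIR157 precursor. Alternatives were other scalings and filters, DESeq2, a replicate block, an adjusted p of 0.05, counts per nt, MIR157a and MIR157b counted once, and leaving out each library.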

Additional observations from a re-analysis of the deposited data

Results flagged for a closer look

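In −Fe replicate 2, MIR157d was at 1.97 CPM, far from the other 3 −Fe libraries (0.0843 to 0.304 CPM). In +Fe replicate 1 it was at 0.425 CPM, apart from the other 3 +Fe libraries (0.191 to 0.223 CPM), but this rests on 6 counts against 2 or 3. The gap to the nearest library was 0.884 of the range of the group in −Fe and 0.863 in +Fe, both above Dixon's 95% critical value for 4 samples. These were 2 flags in 18 groups of values checked, where chance flags about 1 in 20, and the 2 values belong to the same rarely counted precursor.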

How the results depend on the processing

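No MIR157 precursor was called under any alternative that gave an adjusted p (lowest 0.898, for MIR157d without +Fe replicate 1), and DESeq2 gave none for MIR157d. Over all loci edgeR called 0, against 34 by DESeq2, 3 with the replicate number as a block and 0 to 1 with a library left out. Correlations of deviations ran from -0.0019 to 0.049 between same-numbered libraries and from -0.047 to 0.038 between differently numbered ones. All were small, so they cannot decide whether replicate numbers pair libraries. With the block the log2 fold change of MIR157c was 0.094 ± 0.18 (SE) and that of MIR156d 0.089 ± 0.19 (SE).

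Signs of the small differences were not stable. With library totals alone the edgeR log2 fold change was -0.024 for MIR157a and -0.13 for MIR157c. With a library left out it ran from -0.081 to 0.31 for MIR157a, from -0.15 to 0.16 for MIR157c, from -0.092 to 1.70 for MIR157d and from -0.35 to 0.18 for MIR156d. The log2 ratio of mean CPM was -0.025 for MIR157a and -0.13 for MIR157c, against 0.15 and 0.038 with TMM-adjusted sizes, 0.14 and 0.034 without tRNA and rRNA loci, and 0.17 and 0.075 scaled to precursor counts. With a library left out it ran from -0.41 to 0.18 for MIR157a, from -0.31 to 0.0023 for MIR157c and from -0.43 to 1.67 for MIR157d. The difference in the MIR157c share then ran from -0.64 to 0.93 percentage points.

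Per nt, the shares were 10.2% for MIR157a and 89.7% for MIR157c, the MIR157 to MIR156 ratio 0.768 and the rank of MIR157c 7. Scaled to precursor counts, 1 of the 3 most alike precursors stayed among the first 3. By Spearman correlation 2 of the 3 stayed. Without −Fe replicate 2 the MIR157d share was 0.0382%. The causes were not tested. MIR157d had at most 3 counts in 5 of the 8 libraries, and its values are limited by counting error.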
